A study of Mus musculus with 24 samples.

Results

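The 9 genes described here serve sodium reabsorption by principal cells of the collecting duct and its control by aldosterone. They were chosen by name and role, with earlier results of these data known, from the 54532 genes counted in whole mouse kidney. They are Scnn1a, Scnn1b and Scnn1g, which encode the alpha, beta and gamma subunits of the epithelial sodium channel (ENaC), the mineralocorticoid receptor gene Nr3c2, the cortisol- and corticosterone-inactivating enzyme gene Hsd11b2, the kinase gene Sgk1, the ubiquitin ligase gene Nedd4l, the Na,K-ATPase regulator gene Fxyd4 and the transcription factor gene Gata3. All 9 passed the filter on low expression that left 22570 genes for testing.

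RNA-seq was run on whole kidneys of 24 mice of strain C57BL/6 (the J substrain by the study's methods), all 18 days old, with 1 library per mouse. All mice had an RC allele of Pkd1 (a point mutant, with reduced function, of the polycystin-1 gene) over a floxed Pkd1 allele. In the noncystic RC/+ mice (n = 3) the floxed allele was intact and no Cre was present, and in the cystic RC/- mice (n = 5) it had been inactivated by Ksp-Cre. The edited mice lacked the miR-17 binding motif in the 3′ UTR of the RC allele and formed the groups RC/+ D18 (n = 3) and RC/- D18 (n = 5) from founder 3, and RC/+ D53 (n = 3) and RC/- D53 (n = 5) from founder 2. Each edited line thus goes back to 1 founder animal, and the labels do not name the founder of the unedited mice. Founder and edit therefore cannot be told apart where edited mice are set against unedited mice or 1 edited line against the other. The paper describes aggressive disease in unedited RC/- progeny of founder 2, whereas those of founder 3 all survived its follow-up. Ksp-Cre is driven by the cadherin-16 promoter, which is active in tubule epithelium including the collecting duct, so that in every comparison of RC/- with RC/+ mice the Cre transgene and the cystic genotype cannot be told apart.

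In principal cells, sodium enters from the urine through ENaC, a channel of 3 related subunits, and leaves through the basolateral Na,K-ATPase. Aldosterone binds the mineralocorticoid receptor, which induces transcription of Sgk1 among other targets, and the Sgk1 kinase phosphorylates Nedd4l and so keeps it from ubiquitinating ENaC and removing it from the membrane. Hsd11b2 keeps glucocorticoids, which bind the same receptor, from occupying it, and collecting ducts are the segment from which many cysts of polycystic kidneys arise.

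Libraries held between 20379982 and 30837488 counted reads, and levels are given in CPM, each count divided by the total of its library and scaled to a common total. Differences are log2 fold changes with their standard error (SE) from 1 limma-trend model of all 24 libraries, and calls were made where the p-value, adjusted by Benjamini-Hochberg over all 22570 genes, was below 0.05. Over all tested genes the RC/- against RC/+ comparison had a median log2 fold change of 0.14 with this scaling and 0.01 with TMM factors, so each fold change below is also read against that shift. With TMM factors the calls over all genes in RC/- against RC/+ went from 5753 higher and 2744 lower to 3862 higher and 3886 lower, and those in RC/- D18 against RC/- went from 3238 higher and 6067 lower to 4414 and 4435. Libraries 20 to 27, which are 3 of the 5 RC/- D18 and all 5 RC/- D53 libraries, held skeletal muscle transcripts at a summed 147 to 194 CPM over 6 muscle genes, against 5.27 to 9.36 CPM in the other 16 libraries. For comparisons of edited cystic kidneys, calls that end with those libraries as a covariate are given as such, whereas the subunit ratios were tested without that covariate. The RC/- D53 libraries all lie on 1 side of this division, so in comparisons of RC/- D53 with RC/- or RC/+ D53 the covariate is estimated from the RC/- D18 libraries alone.

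The whole-kidney label was matched by transcripts of all tubule segments, and principal cells were represented by the water channel genes Aqp2 at 537 ± 144 CPM and Aqp3 at 181 ± 8.95 CPM in RC/+ (mean ± SD, n = 3). The vasopressin receptor gene Avpr2, another principal cell marker, was close to the detection limit at 0.247 ± 0.0995 CPM in RC/+. In bulk kidney RNA, a change in the number of principal cells and a change in the RNA per cell cannot be told apart. Nor can a change in other cells that express these genes. Nr3c2 and Nedd4l are also expressed in the thick ascending limb and Sgk1 in endothelium.

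Per kilobase of annotated exon, the order of levels in RC/+ kidneys ran from Hsd11b2 at 138 ± 14.9 CPM per kb (mean ± SD, n = 3) and Sgk1 at 74.5 ± 23.4 to Scnn1a at 36.8 ± 6.38, Scnn1b at 36.4 ± 1.52, Fxyd4 at 31.1 ± 1.501 and Scnn1g at 21.8 ± 0.524. Nedd4l followed at 7.69 ± 0.689 CPM per kb, Gata3 at 6.56 ± 1.59 and Nr3c2 at 3.38 ± 0.278. The neighbours Scnn1a, Scnn1b and Fxyd4 lay within 1 SD of Scnn1a of each other, as did Nedd4l and Gata3 within the SD of Gata3, and these pairs were not ordered beyond their spread. Exon lengths are those of all annotated transcripts joined, which for Nedd4l (17.659 kb) exceeds any single transcript and lowers its level per kb.

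In RC/- against RC/+ kidneys the channel, the steroid-inactivating enzyme and the principal cell regulators were higher, the kinase Sgk1 was lower, and the receptor was not called. Of the 9 genes, 7 were higher, against 25.5% of all tested genes, and 1 was lower, against 12.2%. For 7 genes every RC/- library lay above every RC/+ library, which held for 26% of all tested genes. The median log2 fold change of the 9 genes was 1.58, beside 0.14 for all tested genes. The differences ranged from 0.77 for Nedd4l to 2.02 for Gata3 among the genes that were higher, and with TMM factors from 0.63 to 1.88.

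**Figure D1:**
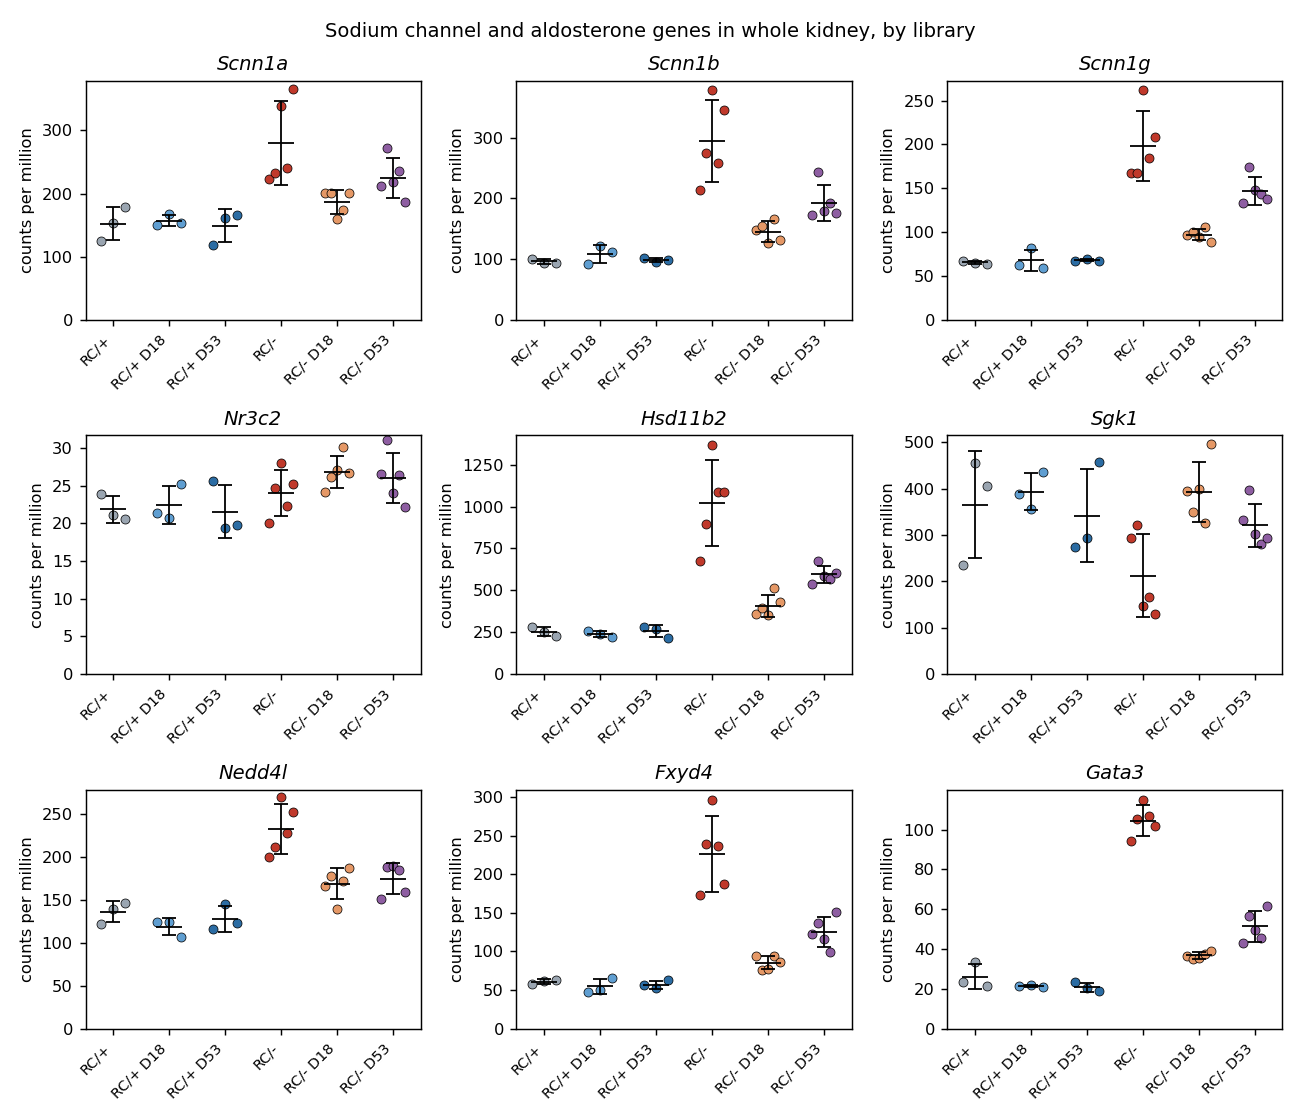
CPM of each of the 9 genes in each of the 24 libraries, by group (points: libraries, horizontal bars: group means, whiskers: SD; axes start at 0). In 7 of the 9 panels all RC/- points lie above all RC/+ points, Gata3 has RC/- at 94.1 to 115 CPM and RC/+ at 21.6 to 33.3 CPM, and in Sgk1 the RC/- points reach lower than those of any other group.

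All 3 channel subunit genes were higher in RC/- than in RC/+. Scnn1a (chr6:125320659-125344943 on GRCm38, forward strand), whose alpha subunit is needed for channel activity, was at 125, 153 and 178 CPM in the RC/+ libraries and at 223, 233, 339.6, 240.3 and 366 CPM in the RC/- libraries. In RC/- D18 it was at 201, 201, 160.4, 174 and 201 CPM, and in RC/- D53 at 212, 272, 219, 237 and 186 CPM. The RC/- values spread widely, and their 2 highest values were the highest of all libraries. No RC/- D18 value reached the lowest RC/- value in CPM. With TMM factors these 2 groups overlap, as the factors are 1.096 for RC/- replicate 13 and 0.930 for RC/- D18 replicate 22. The difference between RC/- and RC/+ was 1.82-fold (log2 0.87 ± 0.15, adjusted p = 8.42e-05).

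Scnn1b (chr7:121865038-121918514, forward strand), the beta subunit gene, was at 101, 93.6 and 93.6 CPM in RC/+ and at 214, 275, 379, 257 and 346 CPM in RC/-. The RC/- D18 libraries held 148, 155, 126, 166 and 131 CPM and the RC/- D53 libraries 172, 243, 179.6, 192 and 176 CPM. The RC/+ values differed little among themselves and all edited cystic values lay above them. Scnn1b was 3.004-fold higher in RC/- than in RC/+ (log2 1.59 ± 0.14, adjusted p = 5.26e-09).

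Scnn1g (chr7:121734479-121768475, forward strand), the gamma subunit gene, lies 96563 bases before Scnn1b on chromosome 7. It was at 67.01, 65.1 and 63.9 CPM in RC/+ and at 167, 168, 262, 185 and 209 CPM in RC/-. In the edited cystic groups it was at 96.3, 99.8, 93.9, 106 and 88.5 CPM in RC/- D18 and at 134, 174, 148, 143 and 138 CPM in RC/- D53. Every RC/- D53 value was above every RC/- D18 value, and both groups lay above RC/+. The RC/- against RC/+ difference was 2.99-fold (log2 1.58 ± 0.12, adjusted p = 3.97e-10).

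The balance of subunit transcripts was followed as the log2 ratio of counts within each library, which does not depend on library scaling. The Scnn1b/Scnn1a ratio was -0.32, -0.71 and -0.93 in RC/+ and -0.064, 0.24, 0.16, 0.10 and -0.081 in RC/-, with no overlap between the groups. It was -0.44, -0.37, -0.35, -0.062 and -0.62 in RC/- D18 and -0.30, -0.16, -0.28, -0.30 and -0.080 in RC/- D53, with group means between those of RC/+ and RC/-. The means differed by 0.72 between RC/- and RC/+ (exact permutation p = 0.0357, two-sided, the smallest that 5 against 3 libraries can give), by -0.44 between RC/- D18 and RC/- (exact p = 0.0238) and by -0.30 between RC/- D53 and RC/- (exact p = 0.0159). Each of these had an adjusted p of 0.0595 over the 10 ratio tests and missed the threshold. For 5 against 3 libraries even the smallest p can pass only where most of the 10 tests are as small. A miss there does not show equal ratios.

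The Scnn1g/Scnn1a ratio was -0.90, -1.23 and -1.48 in RC/+ and -0.42, -0.47, -0.37, -0.38 and -0.81 in RC/-, again without overlap. In RC/- D18 it was -1.06, -1.01, -0.77, -0.72 and -1.18, and in RC/- D53 it was -0.67, -0.65, -0.57, -0.73 and -0.43. The means differed by 0.71 between RC/- and RC/+ and by 0.51 between RC/- D53 and RC/+ D53, both with an exact permutation p of 0.0357 and an adjusted p of 0.0595. RC/- D18 differed from RC/- by -0.46 (exact permutation p = 0.0238, adjusted p = 0.0595) and RC/- D53 from RC/- by -0.12 (exact permutation p = 0.238, adjusted p = 0.238).

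The other ratio tests also missed the threshold. Scnn1b/Scnn1a differed by 0.17 between RC/- D18 and RC/+ D18 (exact permutation p = 0.214) and by 0.36 between RC/- D53 and RC/+ D53 (exact permutation p = 0.143), and Scnn1g/Scnn1a by 0.28 between RC/- D18 and RC/+ D18 (exact permutation p = 0.107). Beta counts per kb of joined annotated exons were 1.02 ± 0.222 times those of alpha in RC/+ (mean ± SD, n = 3) and 1.65 ± 0.16 times in RC/- (n = 5). Gamma counts per kb were 0.608 ± 0.123 and 0.989 ± 0.115 times those of alpha. Joined exons can be longer than the expressed transcript, so these are not numbers of transcripts. All 3 noncystic groups held gamma as the scarcest subunit per kb, and RC/- held gamma and alpha at nearly equal levels per kb.

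**Figure D2:**
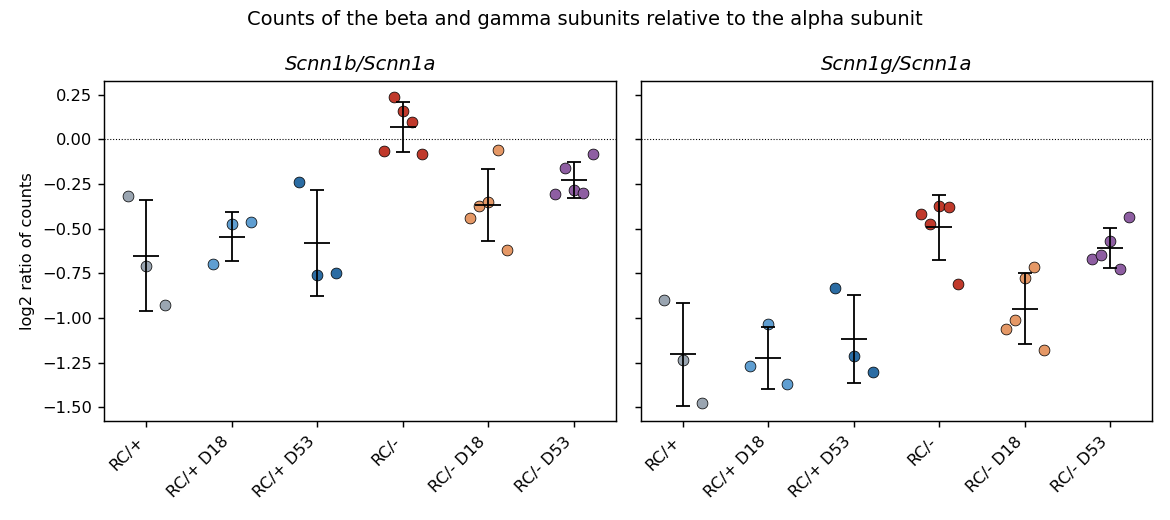
Log2 ratio of Scnn1b to Scnn1a counts (left) and of Scnn1g to Scnn1a counts (right) in each library, by group (points: libraries, bars: group means, whiskers: SD). RC/- points lie above RC/+ points in both panels, 1 RC/- library is set apart at -0.81 on the right, and the edited cystic groups lie mostly between RC/+ and RC/-.

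The receptor gene and the gene of its gatekeeper enzyme differed in behaviour. Nr3c2 (chr8:76899442-77245012, forward strand) was at 23.9, 21.1 and 20.6 CPM in RC/+ and at 20.1, 24.7, 28.04, 22.3 and 25.2 CPM in RC/-, and these groups overlapped. It was at 24.2, 26.2, 27.2, 30.1 and 26.7 CPM in RC/- D18 and at 26.6, 31.02, 24.05, 26.4 and 22.1 CPM in RC/- D53. Its fitted log2 difference was 0.13 ± 0.12 (adjusted p = 0.415), which is no more than the shift of all genes, and with TMM factors it turned to -0.0075. Nr3c2 transcripts were also the scarcest of the 9 per kb in every group.

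Hsd11b2 (chr8:105518755-105523988, forward strand), which oxidises corticosterone to an inactive steroid in aldosterone target cells, was the most abundant of the 9 per kb. Its RC/+ libraries held 283, 249 and 229 CPM and its RC/- libraries 677, 896, 1367, 1086 and 1084 CPM. The RC/- D18 libraries held 357, 394, 351, 512 and 431 CPM and the RC/- D53 libraries 539.6, 676, 584, 567 and 606 CPM. In CPM the groups followed each other without overlap from RC/+ through RC/- D18 and RC/- D53 to RC/-. The last step was narrow, from 676.4 CPM in RC/- D53 replicate 24 to 676.9 CPM in RC/- replicate 13. These libraries have TMM factors of 1.003 and 1.096, and a larger factor lowers the level, so these 2 groups overlap with TMM factors. The RC/- mean of 1022 ± 256 CPM (SD, n = 5) was 3.94-fold that of RC/+ on the fitted log scale (log2 1.98 ± 0.15, adjusted p = 8.36e-10).

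Sgk1 (chr10:21882184-21999903, forward strand), an early target of corticosteroid receptors, was the 1 member with fewer transcripts in RC/- kidneys. Mineralocorticoid and glucocorticoid receptors bind an inverted repeat of the hexamer TGTTCT, so the RefSeq promoter windows (250 bases before to 50 after a start site, GRCm38.p6) of the members were searched for it on both strands. Windows were at hand for 6 of the 9 genes, with 6 of the 11 windows belonging to alternative Sgk1 starts, and 3 Sgk1 windows but none of the other genes' held the hexamer, which occurs in 19% of all 32851 windows. The spaced palindrome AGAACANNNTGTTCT, which reads the same on both strands and contains 2 hexamers, occurred in 1 Sgk1 window, among 3 of all 32851 windows (0.00913%). The stretches of that window with the palindrome and with a further hexamer are shown because it is the searched window of these genes that holds the palindrome, with the matched letters in capitals:
Sgk1 palindrome, chr10:21993694-21993723, forward strand: tgcggaaAGAACAGAATGTTCTcggagatt
Sgk1 hexamer, chr10:21993640-21993669, forward strand: tcctcacgTGTTCTtggcatggctaggatt
The palindrome starts 189 bases and the hexamer 242 bases before the start site. These matches describe letters only, no binding was measured here, and a window without a match says nothing about the receptor.

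Sgk1 was at 236, 455 and 405 CPM in RC/+ and at 294, 322, 147, 166 and 131 CPM in RC/-. The RC/- D18 libraries held 395, 349, 398, 325 and 496 CPM and the RC/- D53 libraries 332, 397, 303, 280.2 and 294 CPM. Replicates 13 and 14 of RC/- lay above the lowest RC/+ library and the other 3 below all RC/+ libraries, so the groups overlapped. The fitted difference was log2 -0.83 ± 0.25 (adjusted p = 0.00991), and with TMM factors -0.97. The call was lost when RC/+ replicate 5 or 6 was left out (adjusted p = 0.0837 and 0.056) and when only RC/- and RC/+ were fitted (adjusted p = 0.065). Per library, other corticosteroid-responsive genes are given beside it. In replicates 13 to 17 Fkbp5 was at 57.3, 46.8, 76.3, 115 and 48.97 CPM, Tsc22d3 at 161, 149, 92.98, 169 and 84.3 CPM and Per1 at 101, 91.3, 65.7, 78.3 and 60.1 CPM.

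Nedd4l (chromosome 18, forward strand) encodes the ligase that marks ENaC for removal and is inhibited by the Sgk1 kinase. It was at 122, 139 and 146 CPM in RC/+, at 199, 211, 269.5, 227 and 252 CPM in RC/-, at 166, 177, 139.5, 172 and 187 CPM in RC/- D18 and at 151, 188, 189.5, 184 and 159 CPM in RC/- D53. All RC/- values lay above those of every other group in CPM. With TMM factors RC/- and RC/- D18 overlap, as the factors are 1.096 for RC/- replicate 13 and 0.930 for RC/- D18 replicate 22. The difference was 1.703-fold (log2 0.77 ± 0.11, adjusted p = 4.36e-06), the smallest among the genes that were higher.

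The gene of the pump regulator and that of the transcription factor showed large differences. Fxyd4 (chr6:117933559-117937692, reverse strand), whose product (also called CHIF) raises the sodium affinity of the collecting duct Na,K-ATPase, was at 57.7, 61.9 and 63.3 CPM in RC/+ and at 173, 239, 297, 236 and 187 CPM in RC/-. Its RC/- D18 libraries held 93.5, 76.1, 77.3, 94.01 and 86.2 CPM and its RC/- D53 libraries 123, 136, 116, 99.4 and 151 CPM. The groups did not overlap and were ordered as for Hsd11b2. The RC/- against RC/+ difference was 3.65-fold (log2 1.87 ± 0.14, adjusted p = 6.66e-10).

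Gata3 (chr2:9857078-9890034, reverse strand), a transcription factor of the nephric duct and the collecting duct, was at 23.4, 33.3 and 21.6 CPM in RC/+ and at 94.1, 105, 115, 107 and 102 CPM in RC/-. It was at 36.4, 35.03, 35.4, 37.6 and 39.2 CPM in RC/- D18 and at 43.2, 56.4, 49.6, 45.6 and 61.7 CPM in RC/- D53. The RC/- libraries agreed closely with each other, and the edited cystic libraries lay between them and RC/+. At 4.06-fold (log2 2.02 ± 0.12, adjusted p = 8.01e-12) this was the largest difference of the 9. Exon bases shared with overlapping annotated genes made up 5.83% of Gata3, 3.82% of Nr3c2 and 1.57% of Nedd4l, and none of the other 6.

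Gata3 is also known from mesangial cells, T cells and urothelium, so their markers were read beside it. In RC/- against RC/+, 25.5% of all tested genes were higher and 12.2% lower. Of 5 markers of mesangial cells and pericytes, 3 were lower and none higher in RC/- than in RC/+, with summed levels of 348 to 359.9 CPM in RC/+ and 195 to 330.1 CPM in RC/-. Of 6 T cell markers, Cd8a alone was called and was lower (-1.85), with sums of 5.98 to 10.8 and 5.003 to 8.62 CPM. None of 6 urothelium markers was called (median log2 fold change 0.71), and their sums were 44.3 to 110.1 CPM in RC/+ and 29.5 to 222 CPM in RC/-. In RC/- D18 against RC/-, 2 of the 6 were lower and 0 higher (median -1.02), against 26.9% and 14.3% of all tested genes. In RC/- D53 against RC/-, 3 were lower and 0 higher (median -1.23), and 1 was lower with TMM factors. None of these markers was at 0 in all libraries of a group, and their part in the Gata3 difference was not tested.

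Deletion of the motif without cystic disease left the 9 genes without a call. In RC/+ D18 against RC/+, 0 of the 9 genes were called, against 0.00443% of all tested genes, and 0 had an unadjusted limma p below 0.05. In RC/+ D53 against RC/+, 0 were called, against 0%, and 1 gene, Gata3, had an unadjusted p below 0.05 (log2 -0.31 ± 0.13). The edgeR and DESeq2 tests called 0 of the 9 in either comparison. In RC/+ D18 against RC/+ the log2 fold changes were 0.060 for Scnn1a, 0.17 for Scnn1b, 0.041 for Scnn1g, 0.035 for Nr3c2, -0.076 for Hsd11b2, 0.15 for Sgk1, -0.20 for Nedd4l, -0.17 for Fxyd4 and -0.25 for Gata3. In RC/+ D53 against RC/+ they were -0.032 for Scnn1a, 0.038 for Scnn1b, 0.055 for Scnn1g, -0.028 for Nr3c2, 0.0076 for Hsd11b2, -0.082 for Sgk1, -0.089 for Nedd4l and -0.099 for Fxyd4. Noncystic edited libraries ranged from 119 to 167 CPM for Scnn1a, from 216 to 284 CPM for Hsd11b2, from 274 to 457 CPM for Sgk1 and from 18.8 to 23.2 CPM for Gata3.

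In cystic kidneys of the D18 line, the channel, enzyme and regulator genes were lower than in unedited cystic kidneys and Sgk1 was higher. Of the 9 genes, 7 were lower in RC/- D18 than in RC/-, against 26.9% of all tested genes, and 1 was higher, against 14.3%. The median log2 fold change was -0.997, beside -0.10 for all genes. The largest differences were those of Gata3 (-1.504 ± 0.10, adjusted p = 9.32e-11), Fxyd4 (-1.38 ± 0.12, adjusted p = 6.21e-09) and Hsd11b2 (-1.296 ± 0.13, adjusted p = 4.47e-08).

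Among the subunit genes, the D18 differences from RC/- were -0.997 ± 0.12 for Scnn1b (adjusted p = 5.05e-07) and -1.01 ± 0.10 for Scnn1g (adjusted p = 3.11e-08) on the log2 scale. Scnn1a differed by -0.56 ± 0.13 (adjusted p = 0.00155). This call was lost with libraries 20 to 27 as a covariate (adjusted p = 0.0605) and, in nearly the same comparison, without libraries 20 to 22 (adjusted p = 0.0675). Nedd4l differed by -0.46 ± 0.09 (adjusted p = 0.000331). Sgk1 was 1.97-fold higher (log2 0.98 ± 0.21, adjusted p = 0.000717), with every RC/- D18 library above every RC/- library. Nr3c2 stood at log2 0.16 ± 0.10 (adjusted p = 0.209) and was called higher with TMM factors (0.28, adjusted p = 0.0361).

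In cystic kidneys of the D53 line the differences had the same directions and smaller estimates. Of the 9 genes, 6 were lower in RC/- D53 than in RC/-, against 18.9% of all tested genes, and 1 was higher, against 11.3%. Their median was -0.41, beside -0.081 for all genes. Gata3 differed by -1.03 ± 0.10 on the log2 scale (adjusted p = 7.59e-08), Fxyd4 by -0.84 ± 0.12 (adjusted p = 1.42e-05) and Hsd11b2 by -0.75 ± 0.13 (adjusted p = 0.000141). These 3 were also the genes that remained called with libraries 20 to 27 as a covariate, with adjusted p = 0.000631, 0.0178 and 0.0156.

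Scnn1b, at -0.59 ± 0.12 (adjusted p = 0.000573), Scnn1g, at -0.41 ± 0.10 (adjusted p = 0.00307), and Nedd4l, at -0.41 ± 0.09 (adjusted p = 0.00154), were lower in RC/- D53 than in RC/-, and each lost its call with the covariate (adjusted p = 0.192, 0.225 and 0.216). Sgk1 was higher by 0.69 ± 0.21 (adjusted p = 0.0167), and its call was lost with the covariate (adjusted p = 0.407) and without RC/- replicate 15 or 17 (adjusted p = 0.0551 and 0.0661). Scnn1a had -0.30 ± 0.13 (adjusted p = 0.0994), called only when RC/- replicate 13 was left out (adjusted p = 0.0444). Nr3c2 had 0.11 ± 0.10 (adjusted p = 0.45). All comparisons with RC/- share its 5 libraries, so the values for both lines are not independent of each other.

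**Figure D3:**
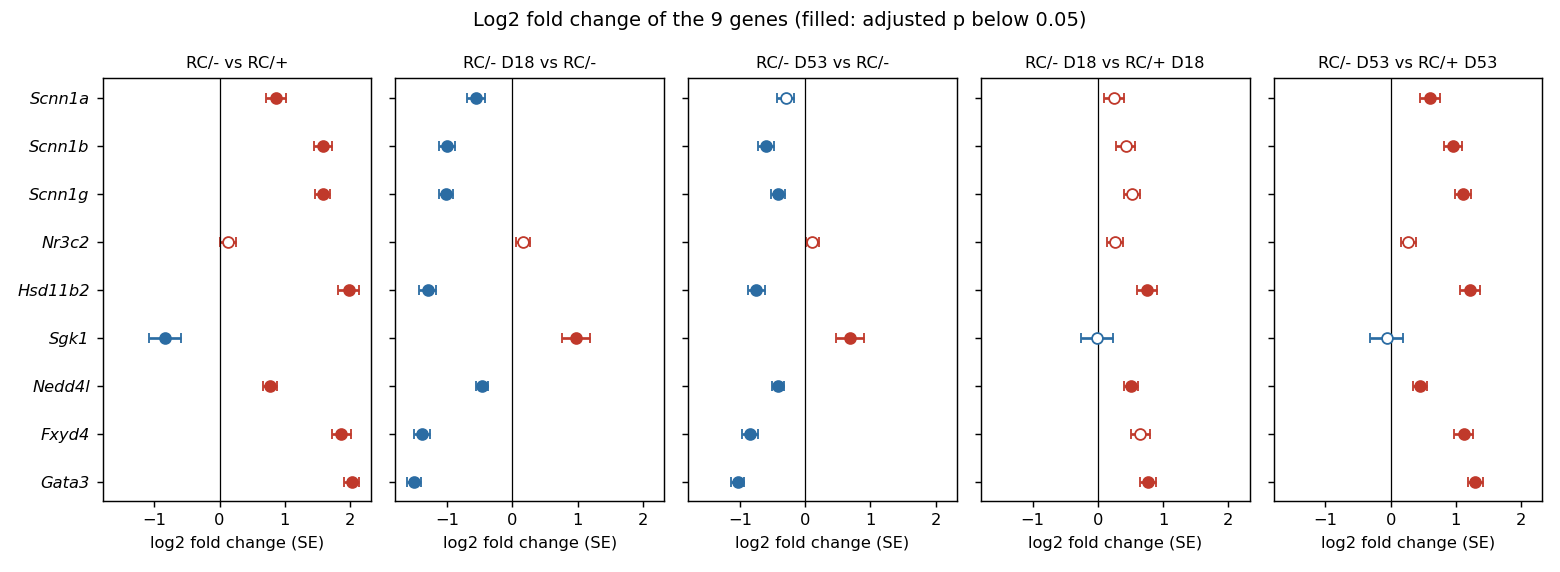
Log2 fold change of the 9 genes in 5 comparisons (points: limma estimates, whiskers: SE, filled points: adjusted p below 0.05, red: above 0, blue: below 0). Sgk1 lies opposite to the other called genes in the first 3 panels, and in the within-line panels most genes stay above 0, with Gata3 at 0.77 in the D18 line and 1.298 in the D53 line.

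Within each edited line, cystic kidneys were compared with noncystic kidneys of that line. The difference of means uses none of the unedited libraries, but its SE and p-value draw on the spread in all 24 libraries. In the D18 line, 3 of the 9 genes were higher in RC/- D18 than in RC/+ D18, against 0.261% of all tested genes, and 6 had every cystic library above every noncystic library, against 3.85%. Their median was 0.51, beside 0.038 for all genes. The called genes were Gata3 (0.77 ± 0.12, adjusted p = 0.00209), Hsd11b2 (0.76 ± 0.15, adjusted p = 0.0325) and Nedd4l (0.51 ± 0.11, adjusted p = 0.045). Gata3 alone kept its call with TMM factors (adjusted p = 0.0116), and it too lost the call with the library covariate (adjusted p = 0.0635). When only RC/- D18 and RC/+ D18 were fitted, Gata3 stayed called (adjusted p = 0.00411). Hsd11b2 and Nedd4l were not called in that fit (adjusted p = 0.0569 and 0.164).

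The remaining genes of the D18 line had log2 fold changes of 0.25 ± 0.15 for Scnn1a, 0.42 ± 0.14 for Scnn1b, 0.52 ± 0.12 for Scnn1g and 0.65 ± 0.14 for Fxyd4 (adjusted p = 0.706, 0.286, 0.0575 and 0.0524). Sgk1 and Nr3c2 had -0.012 ± 0.25 and 0.26 ± 0.12 (adjusted p = 0.996 and 0.51). Single libraries mattered here: without RC/+ D18 replicate 8 the adjusted p of Hsd11b2 was 0.161 and that of Nedd4l 0.153, and leaving out RC/+ D18 replicate 7 or 9 or RC/- D18 replicate 21 or 22 also ended both calls. Nedd4l lost its call as well without RC/- D18 replicate 18 or 19. Scnn1g was called without RC/+ D18 replicate 8 (adjusted p = 0.0382) and Fxyd4 without RC/+ D18 replicate 9 or RC/- D18 replicate 19 (adjusted p = 0.0232 and 0.0491).

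In the D53 line, 7 of the 9 genes were higher in RC/- D53 than in RC/+ D53, against 2.45% of all tested genes, and the same 7 had every cystic library above every noncystic library, against 8.19%. The median over the 9 genes was 0.96, beside 0.041 for all genes. Gata3 was 2.46-fold higher (log2 1.298 ± 0.12, adjusted p = 3.13e-07), Hsd11b2 2.33-fold (log2 1.22 ± 0.15, adjusted p = 4.64e-05) and Fxyd4 2.18-fold (log2 1.12 ± 0.14, adjusted p = 4.92e-05). The beta and gamma subunit genes were also higher, at 0.96 ± 0.14 for Scnn1b (adjusted p = 0.000197) and 1.11 ± 0.12 for Scnn1g (adjusted p = 3.53e-06).

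Scnn1a (0.60 ± 0.15, adjusted p = 0.032) and Nedd4l (0.45 ± 0.11, adjusted p = 0.0224) were also called in the D53 line and lost the call with TMM factors (adjusted p = 0.0616 and 0.0788) and with the library covariate (adjusted p = 0.115 and 0.155). Scnn1a also lost it without any 1 of RC/+ D53 replicates 10, 11 and 12 or RC/- D53 replicates 24, 25 and 26 (adjusted p up to 0.252), and Nedd4l without RC/+ D53 replicate 10 or 12 or RC/- D53 replicate 24 or 25 (adjusted p up to 0.155). The other 5 genes remained called with the covariate, with adjusted p values from 0.00317 for Gata3 to 0.0386 for Hsd11b2. Sgk1 had -0.061 ± 0.25 and Nr3c2 0.27 ± 0.12 (adjusted p = 0.96 and 0.298).

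Whether the cystic difference in an edited line was equal to that in the unedited line was tested by interaction contrasts. In the D18 line the difference was smaller for 5 of the 9 genes, against 10.8% of all tested genes with an interaction below 0. They were Gata3 (-1.25 ± 0.17, adjusted p = 2.1e-05), Hsd11b2 (-1.22 ± 0.22, adjusted p = 0.000412), Fxyd4 (-1.22 ± 0.20, adjusted p = 0.00021), Scnn1b (-1.16 ± 0.20, adjusted p = 0.000262) and Scnn1g (-1.05 ± 0.17, adjusted p = 0.00012). All 5 also passed with TMM factors. They passed with the covariate and without libraries 20 to 22 as well, but these 2 settings are nearly 1 check (Scnn1b -1.09 in both). Scnn1a (-0.62 ± 0.22, adjusted p = 0.0529), Sgk1 (0.82 ± 0.35, adjusted p = 0.115), Nedd4l (-0.26 ± 0.15, adjusted p = 0.269) and Nr3c2 (0.13 ± 0.17, adjusted p = 0.664) did not pass. Leaving out RC/+ replicate 6 or RC/- replicate 13, 14 or 16 brought in Scnn1a (adjusted p from 0.0278 to 0.0436), and leaving out RC/+ replicate 4 or RC/- replicate 14 brought in Sgk1 (adjusted p = 0.0349 and 0.0326).

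In the D53 line the interaction was below 0 for 4 of the 9 genes, against 6.55% of all tested genes. They were Gata3 (-0.72 ± 0.17, adjusted p = 0.00593), Fxyd4 (-0.74 ± 0.20, adjusted p = 0.0187), Hsd11b2 (-0.75 ± 0.22, adjusted p = 0.0265) and Scnn1b (-0.63 ± 0.20, adjusted p = 0.0409). With TMM factors, Gata3 and Fxyd4 passed (adjusted p = 0.0257 and 0.0491) and the other 2 did not, and with libraries 20 to 27 as a covariate none did (adjusted p from 0.068 to 0.367 over the 4 genes). Fxyd4 also failed without RC/+ D53 replicate 12 (adjusted p = 0.0611) and Hsd11b2 without RC/+ replicate 5 or 6 or RC/+ D53 replicate 10 or 11 (adjusted p up to 0.0796). The Scnn1b call was lost in 12 of 16 leave-one-library-out fits, with adjusted p up to 0.0919 without RC/+ replicate 5. Scnn1g, at -0.47 ± 0.17 (adjusted p = 0.0705), was called without RC/- replicate 13 or 14 or RC/- D53 replicate 24 (adjusted p up to 0.0405). Scnn1a had -0.26 ± 0.22, Nedd4l -0.32 ± 0.15, Sgk1 0.77 ± 0.35 and Nr3c2 0.14 ± 0.17 (adjusted p = 0.49, 0.186, 0.165 and 0.653).

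The edited cystic lines were also set against each other. Of the 9 genes, 2 were higher in RC/- D53 than in RC/- D18, against 0.244% of all tested genes. The median was 0.40, beside 0.029 for all genes. Scnn1g differed by 0.60 ± 0.10 (adjusted p = 0.00913). It passed with the covariate (0.61, adjusted p = 0.0256) and within libraries 20 to 27 alone (0.61, adjusted p = 0.0382), 2 fits of nearly the same comparison. It did not pass without libraries 20 to 22 (adjusted p = 0.12), which leaves 2 RC/- D18 libraries. Gata3 differed by 0.47 ± 0.10 (adjusted p = 0.0442), and lost the call with TMM factors (adjusted p = 0.0961), with the covariate (adjusted p = 0.0695), within libraries 20 to 27 (adjusted p = 0.104), without libraries 20 to 22 (adjusted p = 0.227) and in 8 of 10 leave-one-library-out fits, with adjusted p up to 0.144 without RC/- D53 replicate 27.

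Hsd11b2 (0.55 ± 0.13, adjusted p = 0.0808) and Fxyd4 (0.54 ± 0.12, adjusted p = 0.0629) were not called between the lines, although no RC/- D53 library of either gene lay below an RC/- D18 library. Hsd11b2 was called without RC/- D18 replicate 21 (adjusted p = 0.0484) and Fxyd4 without RC/- D53 replicate 26 (adjusted p = 0.0316). Scnn1b had 0.40 ± 0.12, Scnn1a 0.26 ± 0.13, Nedd4l 0.048 ± 0.09, Nr3c2 -0.052 ± 0.10 and Sgk1 -0.29 ± 0.21 (adjusted p = 0.181, 0.4, 0.875, 0.876 and 0.603).

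A list of 20 further genes of the channel and the mineralocorticoid pathway moved in both directions. In RC/- against RC/+, 3 of the 20 were higher, against 25.5% of all tested genes, and 7 were lower, against 12.2%. The other 10 were not called, and the median log2 fold change was -0.17. The higher genes were Cnksr3, a scaffold that supports ENaC (0.60, adjusted p = 3.9e-06), the ligase gene Nedd4, a relative of Nedd4l (0.35, adjusted p = 0.0104), and Mllt3, whose product represses Scnn1a transcription together with Dot1l (0.30, adjusted p = 0.0349). With TMM factors the calls of Nedd4 and Mllt3 were lost (adjusted p = 0.0628 and 0.227). The lower genes with the largest differences were the kinase gene Wnk1 (-0.96, adjusted p = 2.33e-07), the deubiquitinase gene Usp2 (-0.91, adjusted p = 0.00037) and the kinase gene Wnk4 (-0.72, adjusted p = 0.00289).

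Other genes of that list also act outside the collecting duct. The Na,K-ATPase beta subunit gene Atp1b1, at 1804 ± 255 CPM in RC/- (SD, n = 5) and 2569 ± 153 CPM in RC/+ (SD, n = 3), was lower (-0.52, adjusted p = 0.00252), as were the ENaC-cleaving protease gene Prss8 (-0.43, adjusted p = 0.000854) and the glucocorticoid receptor gene Nr3c1 (-0.30, adjusted p = 0.032). The steroid-responsive genes Tsc22d3, Per1, Zbtb16 and Fkbp5 were not called, with log2 values of -0.18, -0.24, -0.96 and -0.17, although Per1 was called lower with TMM factors (-0.38, adjusted p = 0.0494), and Zbtb16 varied widely within RC/+, at 4.002, 23.1 and 38.9 CPM. Counts per gene cannot separate isoforms such as the kidney-specific short Wnk1 transcript of the distal convoluted tubule.

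In RC/- D18 against RC/-, 8 of the 20 pathway genes were higher and 4 lower (median 0.26), against 14.3% and 26.9% of all tested genes. Wnk1 was at 1.03, Usp2 at 0.99 and Wnk4 at 0.85. In RC/- D53 against RC/-, 7 were higher and 2 lower (median 0.15), against 11.3% and 18.9% of all tested genes. Wnk1 was at 0.81 and Usp2 at 0.72. With libraries 20 to 27 as a covariate these counts were 7 higher and 2 lower for D18, and 1 higher (Wnk1, adjusted p = 0.000631) and 0 lower for D53. Within the edited lines limma called 0 of the 20 in either, 0 had an unadjusted p below 0.05 in the D18 line and 1 in the D53 line, and edgeR and DESeq2 called 0. Over all 22570 tested genes limma called 60 in the D18 line and 587 in the D53 line. With so few calls, 0 of 20 does not show a return of these genes to the noncystic level.

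Other principal cell markers were mostly higher as well. Of 7, 5 were higher in RC/- than in RC/+ and none was lower (median 1.15), against 25.5% and 12.2% of all tested genes. Elf5 and Gata2, transcription factor genes, had 1.85 and 1.42 (adjusted p = 1.19e-06 and 2.11e-10), Aqp2 had 1.23 and Aqp3 1.15 (adjusted p = 0.01 and 0.00027). Aqp2 was at 1103, 1420.01, 1927, 2101 and 439 CPM in the 5 RC/- libraries, of which replicate 17 lay within the RC/+ range, whereas Gata2 was at 121, 129.99, 173, 131 and 148 CPM there and at 52.7, 52.4 and 51.7 CPM in RC/+. In RC/- D18 against RC/-, 6 of the 7 markers were lower, against 26.9% of all tested genes, and in RC/- D53 against RC/- 3 were lower, against 18.9%. With libraries 20 to 27 as a covariate 5 and 2 were. Within the edited lines Gata2 was higher in both (0.67 in D18, adjusted p = 0.00209, and 0.9998 in D53, adjusted p = 2.16e-06), and Elf5 was higher in the D53 line (1.51, adjusted p = 0.000392). With the covariate Gata2 in the D53 line kept its call (adjusted p = 0.0184), and Gata2 in the D18 line and Elf5 lost it (adjusted p = 0.0923 and 0.164).

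**Figure D4:**
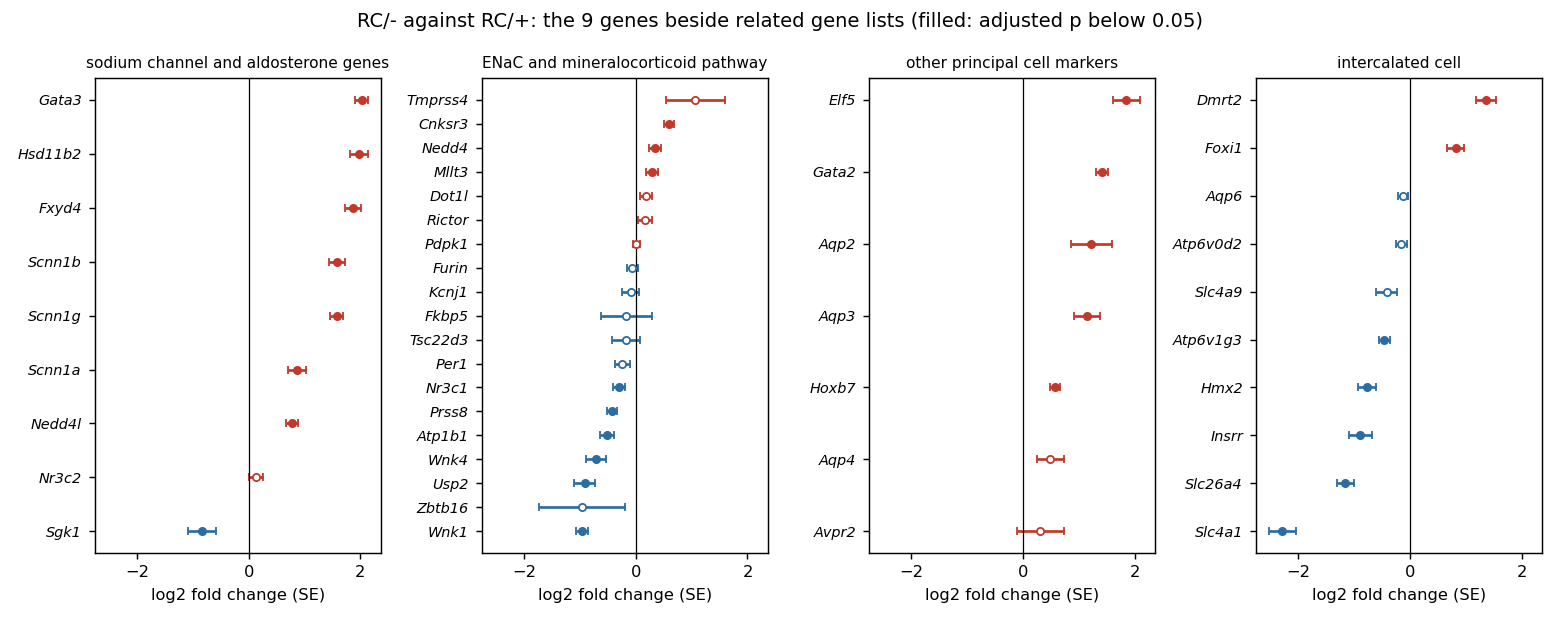
Log2 fold change of RC/- against RC/+ for the 9 genes, 19 of the 20 further pathway genes, 7 other principal cell markers and 10 intercalated cell markers (points: limma estimates, whiskers: SE, filled points: adjusted p below 0.05). The panels of the 9 genes and of the principal cell markers lie mostly to the right of 0, up to 2.02 for Gata3, and the pathway and intercalated cell panels lie on both sides, down to -2.28 for Slc4a1.

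Intercalated cells, the acid-base cells that share the collecting duct with principal cells, gave a mixed picture. Of 10 markers, 2 were higher in RC/- than in RC/+, the transcription factor genes Dmrt2 (1.36) and Foxi1 (0.82), and 5 were lower, among them the anion exchanger genes Slc4a1 (-2.28) and Slc26a4 (-1.15) and the receptor gene Insrr (-0.89). Of all tested genes, 25.5% were higher and 12.2% lower. With TMM factors 8 were lower, as Atp6v0d2, Slc4a9 and Aqp6 were added (adjusted p = 0.0346, 0.0174 and 0.0481). Summed intercalated marker levels were 624 to 660.4 CPM in RC/+ and 424 to 612 CPM in RC/-. The connecting tubule, which also carries ENaC, shared its list with the distal convoluted tubule, and all 6 of those markers were lower, at log2 -2.18 for Pvalb, -2.14 for Calb1 and -1.899 for Klk1, with sums of 2847 to 2956 CPM in RC/+ and 596 to 981 CPM in RC/-.

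Markers of other cells moved in both directions in RC/- against RC/+, where 25.5% of all tested genes were higher and 12.2% lower. All 8 proximal tubule markers were lower (sums 7233 to 7819 CPM in RC/+ and 1469 to 3788 CPM in RC/-), and of 6 thick ascending limb markers 5 were lower and Cldn16 was higher (5627 to 6425 and 1852 to 3607 CPM), a call that Cldn16 lost with TMM factors (adjusted p = 0.253). Of 6 podocyte markers 5 were lower and Synpo higher (596 to 599 and 303 to 433 CPM), and of 6 endothelial markers 3 were lower (811 to 1113 and 619.8 to 946 CPM). All 8 macrophage markers were higher (244 to 264 and 467 to 819 CPM), as were 5 of 7 fibroblast markers (1444 to 1973 and 3197 to 5385 CPM), and none of the 6 muscle markers was called (5.27 to 7.55 and 6.47 to 9.36 CPM). With TMM factors the endothelial marker Flt1 and the fibroblast marker Pdgfra were also lower (adjusted p = 0.00731 and 0.021). None of these markers was at 0 in all libraries of RC/+ or RC/-. The part that these differences have in the CPM of the 9 genes was not tested.

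For the 8 genes called in RC/- against RC/+, the tested genes with the most similar pattern were sought, by the root mean square difference of log2 CPM centred on each gene's mean over the 24 libraries. Scnn1b and Scnn1g were the nearest gene to each other (0.14). The next nearest of Scnn1b was A930017K11Rik, and Col26a1 was among the nearest of Scnn1g. Nearest to Scnn1a were Rhcg (0.15), Kit (0.16), Kcnq1 (0.16), to Nedd4l Grb14 (0.13), Arl15 (0.14), Aif1l (0.14) and to Sgk1 Col4a3 (0.23), Pim3 (0.23), Cldn10 (0.24). Degs2 was among the 3 nearest of Hsd11b2, Fxyd4 and Gata3, at 0.21, 0.18 and 0.21, and Tfap2a was nearest to Gata3 (0.17). The other genes nearest to Hsd11b2 were A930017K11Rik and St6galnac2, the others nearest to Fxyd4 were Tfap2a and Prss23, and the other nearest to Gata3 was Junos. These distances describe the libraries, which fall into groups, and carry no test.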

How the data were processed

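The deposited table holds raw read counts per gene for 54532 Ensembl genes in 24 libraries. The authors trimmed reads with Trim Galore 0.6.3 and aligned and counted them with STAR 2.5.3a on GRCm38, and the strand column used is not given in the sources used here. No column of values was left unused. Counts were scaled to log2 CPM with edgeR 4.0.16 (total counts, prior count 2), genes averaging a log2 CPM of -3 or more were kept, and limma 3.58.1 (limma-trend, R 4.3.3) was fitted to all 24 libraries with 6 group means and no covariate. The 8 group comparisons and 2 interaction contrasts used two-sided tests with Benjamini-Hochberg adjustment over 22570 genes. Ratios of subunit counts (pseudocount 1) were tested by exact permutation over libraries. Replicate counts differed beyond sampling noise in all 39 within-group pairs (chi-square per degree of freedom of at least 8.45). The labels do not name litters, and p-values measure the spread between mice. Sex, read from Xist and Ddx3y (14 female, 10 male libraries), was used as a covariate in an alternative.

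Members and gene lists were chosen with earlier results of these data known. The text names all 9 members in every comparison, up to 3 genes per direction of each list by size of change among those called in RC/- against RC/+, and the 3 genes nearest to each called member, apart from items that are not reported here. Values of further list genes (Atp1b1, Prss8, Nr3c1, Tsc22d3, Per1, Zbtb16, Fkbp5, Avpr2, Aqp3, Atp6v0d2, Slc4a9, Aqp6, Flt1 and Pdgfra) were added after their values were seen. Alternatives were TMM and DESeq2 size factors, the edgeR quasi-likelihood and DESeq2 1.42.0 tests, no filter, prior count 0.5, only the compared groups, sex or libraries 20 to 27 as covariates, and each library left out. Fits within libraries 20 to 27 and without libraries 20 to 22 were chosen after seeing the data. Exon lengths and coordinates came from GENCODE M21, a later release than the counted gene models, and promoter windows from RefSeq. Scripts were tested on simulated data.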

Additional observations from a re-analysis of the deposited data

Results flagged for a closer look

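Results are listed here that stood out by a fixed criterion, with their values. The cystic difference was smaller in the D18 line than in the unedited line, by a test of the difference itself, for Scnn1b (-1.16 on the log2 scale), Scnn1g (-1.05), Hsd11b2 (-1.22), Fxyd4 (-1.22) and Gata3 (-1.25). The same test found a smaller cystic difference in the D53 line for Scnn1b (-0.63), Hsd11b2 (-0.75), Fxyd4 (-0.74) and Gata3 (-0.72). These 4 differences did not pass with libraries 20 to 27 as a covariate (adjusted p from 0.068 to 0.367), Scnn1b and Hsd11b2 did not pass with TMM factors, and Scnn1b did not pass in 12 of 16 leave-one-library-out fits.

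In 2 of the 33 sets of 5 libraries examined (9 genes and 2 ratios in each cystic group), 1 library lay far from the other 4. The log2 ratio of Scnn1g to Scnn1a was -0.81 in RC/- replicate 17, below the other RC/- libraries. Scnn1b was at 243 CPM in RC/- D53 replicate 24, above the other RC/- D53 libraries. Chance alone marks about 1 in 20 such sets.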

How the results depend on the processing

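No paired analysis was possible because the labels name no litters or pairs of mice. Counts of called members in RC/- against RC/+, RC/- D18 against RC/-, RC/- D53 against RC/+ D53, both noncystic comparisons and the D18 interaction moved by no more than 1.5 times under all alternatives run. In RC/- D53 against RC/- the count of 7 fell to 3 with libraries 20 to 27 as a covariate. In RC/- D18 against RC/+ D18 the count of 3 became 1 with TMM factors, DESeq2 size factors, edgeR, only the compared groups or no filter, 5 with DESeq2, and 0 with the covariate or without libraries 20 to 22, and it was 1 to 3 with 1 library left out. In RC/- D53 against RC/- D18 the count of 2 became 1 with TMM factors, DESeq2 size factors, edgeR, no filter, the covariate or within libraries 20 to 27, 4 with DESeq2, 0 without libraries 20 to 22, and 1 to 3 with 1 library left out. For the D53 interaction the count of 4 became 2 with TMM factors, DESeq2 size factors or edgeR, 0 with the covariate, and 2 to 5 with 1 library left out. The effect of the covariate on these counts cannot be separated from that of fewer libraries setting the estimate. With 1 library left out, 5 against 2 or 4 against 3 libraries cannot give an adjusted p below 0.05 for a ratio. The ratio differences kept their signs in all fits with 1 library left out and with a pseudocount of 0.5.

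Single gene results reversed sign as follows, and the cause was not tested. Nr3c2 in RC/- against RC/+ was -0.00745 with TMM and -0.00352 with DESeq2 size factors. With the covariate, Nr3c2 was -0.0352 in RC/- D53 against RC/- and -0.00686 in the D53 interaction, and without libraries 20 to 22 it was 0.0374 in RC/- D53 against RC/- D18. Hsd11b2 in RC/+ D53 against RC/+ was -0.00813 with TMM, -0.00714 with DESeq2 size factors, -0.00176 with edgeR and -0.00105 with DESeq2. With 1 library left out, values in RC/+ D18 against RC/+ ran from -0.0729 to 0.18 for Scnn1a, -0.10 to 0.13 for Scnn1g, -0.0532 to 0.10 for Nr3c2, -0.15 to 0.00594 for Hsd11b2 and -0.13 to 0.34 for Sgk1. In RC/+ D53 against RC/+ they ran from -0.16 to 0.12 for Scnn1a, -0.16 to 0.0446 for Nr3c2, -0.0725 to 0.13 for Hsd11b2 and -0.37 to 0.10 for Sgk1. In cystic comparisons Sgk1 ran from -0.0994 to 0.0643 in RC/- D18 against RC/+ D18 and -0.20 to 0.17 in RC/- D53 against RC/+ D53, and Nr3c2 from -0.12 to 0.00466 and Nedd4l from -0.0185 to 0.0985 in RC/- D53 against RC/- D18. None of these results was called. Over all members and comparisons, 782 of 855 values under other settings and 791 of 882 with 1 library left out kept both direction and call. Every member had at least 383 reads in each library.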
